A study of Mus musculus with 2 samples.

Results

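The 10 genes described here, Dusp1, Dusp2, Dusp3, Dusp4, Dusp5, Dusp6, Dusp8, Dusp10, Dusp14 and Dusp16, encode dual-specificity phosphatases that act on MAP kinases. They were chosen by symbol, and all 10 were found among the 55536 gene entries of the annotation, where each symbol had values in both libraries. The libraries hold total RNA, depleted of ribosomal RNA, from the nuclei of primary macrophages grown from bone marrow of C57BL/6J mice. The labels describe the fraction as nucleoplasmic in one place and as the nucleus in another, so whether it holds RNA bound to chromatin is not known here. All cells had been exposed to 100 ng/ml Lipid A, the part of bacterial lipopolysaccharide that Toll-like receptor 4 recognises, for 60 min. There are 2 biological replicates of this 1 condition: the starting amount was 1 µg for replicate 1 and 500 ng for replicate 2. Both carry the same donor label, and age and sex were not collected per the labels, and the labels do not say whether the cells came from separate animals. Unstimulated cells and other fractions or times were not analysed here. The values are therefore levels in stimulated nuclei, and none of them says whether Lipid A changed a gene. With 1 group there is no test between groups and no p-value.

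MAP kinases (ERK, JNK and p38) are switched on by phosphorylation of a threonine and a tyrosine in their activation loop, and dual-specificity phosphatases remove both phosphates. The family is divided by where its members act and which kinase they prefer. Dusp1, Dusp2, Dusp4 and Dusp5 are nuclear enzymes known as products of early response genes, and are called the nuclear members below. The name marks this class and does not mean that the other members are absent from the nucleus. Dusp6 acts on ERK in the cytoplasm. Dusp8, Dusp10 and Dusp16 prefer JNK and p38, and Dusp3 and Dusp14 are small atypical members without the kinase-binding domain. In macrophages the family is known as a brake on the MAP kinase signals that Toll-like receptors set off, and Dusp1 in particular as a brake on p38 and cytokine production.

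The results turn on unspliced sequence in Dusp1 and Dusp2, so the introns that their annotated retained-intron transcripts keep are shown first. Each line gives the last 12 bases of the exon in lower case and the first 18 bases of the intron in capitals, then for the far end the last 18 bases of the intron in capitals and the first 12 of the next exon. All are read 5′ to 3′ on the strand of the gene, on mm10.
Dusp1 intron 2, donor: ctctacgatcagGTTAGTAGGAGTCCGGGT
Dusp1 intron 2, acceptor: CTGTTTTTTTGACTTCAGgggggcccagtg
Dusp1 intron 3, donor: ttgacttcatagGTAAATGGAATAACTATC
Dusp1 intron 3, acceptor: CATAACTTTATTTTCCAGactccatcaagg
Dusp2 intron 2, donor: atctatgaccagGTGAGTTGATATTCGAAT
Dusp2 intron 2, acceptor: GTCCCCTTCCTCCTCCAGggtggtcctgtg
All 3 introns begin with GT and end with AG, the usual ends of a spliced intron. Intron 2 of Dusp1 lies at chr17:26507205-26507573 on the minus strand and spans 369 bp. Intron 3 of Dusp1 lies at chr17:26506651-26506984 and spans 334 bp. Intron 2 of Dusp2 lies at chr2:127336899-127337248 on the plus strand and spans 350 bp. The coding transcripts Dusp1-202 and Dusp2-201 have 3 introns each. The exon ends that flank intron 2 are alike in both genes: 9 of the 12 bases before it and 9 of the 12 bases after it are equal. Within the intron, 10 of the first 18 bases and 8 of the last 18 are equal.

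Dusp1 was the highest member in both libraries, followed by Dusp2, and the other 8 were far below these 2. Levels are given as TPM (each gene's share of the library, corrected for its length) from the deposited gene tables. Dusp1 (chr17:26505590-26562128, minus strand) stood at 422.9 TPM in replicate 1 and 309.3 TPM in replicate 2 (366 ± 80.3, SD, n = 2), from expected counts of 15791 and 10499. In bulk RNA such a level cannot be divided into the number of cells that carry the RNA and the amount in each cell. The gene was the 64th by TPM among the 22015 protein-coding genes of the nuclear genome in each library. Dusp2, known as an enzyme of activated immune cells, lies at chr2:127336159-127338376 on the plus strand and had a TPM of 189.93 and 119.16 (154.5 ± 50.04, SD, n = 2). Its expected counts were 5145 and 2790, and it ranked 209th and 246th. Dusp1 alone held 57.5% ± 1.46 of the summed TPM of the 10 members, and Dusp1 and Dusp2 together held 81.4% ± 0.520 (both SD, n = 2).

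The other nuclear members, Dusp5 and Dusp4, were lower, and Dusp5 was the higher of the 2 in both libraries. Dusp5, an ERK-specific phosphatase at chr19:53529109-53542431 on the plus strand, had a TPM of 41.79 and 35.97 (38.9 ± 4.12, SD, n = 2). Dusp4, which acts on ERK and JNK, lies at chr8:34807297-34819894 on the plus strand and had a TPM of 34.50 and 18.08 (26.3 ± 11.6, SD, n = 2). By deposited TPM replicate 1 was the higher library for all 4 nuclear members. The same held for protein-coding genes in general, with a median log2 ratio of replicate 2 to replicate 1 of -0.42. After the scaling of counts described below, Dusp5 was the higher in replicate 2 (log2 ratio 0.20). Within each library the median of log2(TPM + 1) was 6.28 ± 0.31 for the 4 nuclear members and 1.93 ± 0.12 for the other 6, a difference of 4.35 ± 0.43 (SD, n = 2). The sets overlap in replicate 2, where Dusp16 lay above Dusp4, and do not in replicate 1.

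Dusp6, the cytoplasmic ERK phosphatase, was barely detected. The gene, at chr10:99263231-99267489 on the plus strand, had a TPM of 0.69 and 0.56 (0.625 ± 0.0919, SD, n = 2), from 34 and 29 expected counts. The authors' quantifier gave intervals, of a level the files do not state, from 0.542 to 1.30 in replicate 1 and from 0.446 to 1.06 in replicate 2. The TPM of Dusp1 was 583 ± 42.8 times that of Dusp6 (SD, n = 2). This ratio rests on the few Dusp6 counts, and its SD does not carry the width of the intervals above.

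The 3 phosphatases that prefer JNK and p38 were spread from the middle to the bottom of the family. Dusp16 (chr6:134715468-134792625, minus strand) had a TPM of 32.76 and 21.32 (27.0 ± 8.09, SD, n = 2), from 2898 and 1883 expected counts. Dusp8 (chr7:142079490-142095843, minus strand) had a TPM of 4.29 and 3.42 (3.86 ± 0.615, SD, n = 2). Dusp10 (chr1:184013302-184075636, plus strand) had a TPM of 0.62 and 0.69 (0.655 ± 0.0495, SD, n = 2), from 39 and 41 expected counts. Dusp16 was thus the main member of this class, and Dusp10 was at the level of Dusp6.

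The 2 small atypical phosphatases differed by close to an order of magnitude. Dusp3, also called VHR and active on ERK and JNK, lies at chr11:101971143-101987013 on the minus strand and had a TPM of 20.35 and 17.41 (18.9 ± 2.08, SD, n = 2). Dusp14 (chr11:84048041-84069261, minus strand) had a TPM of 1.42 and 2.68 (2.05 ± 0.891, SD, n = 2), from 43 and 70 expected counts. By deposited TPM, Dusp14 and Dusp10 were the only members higher in replicate 2. On TPM rescaled over protein-coding genes, Dusp3 (80.0 and 92.6), Dusp5 (164 and 191), Dusp6 (2.71 and 2.98) and Dusp8 (16.9 and 18.2) were higher there too.

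**Figure D1:**
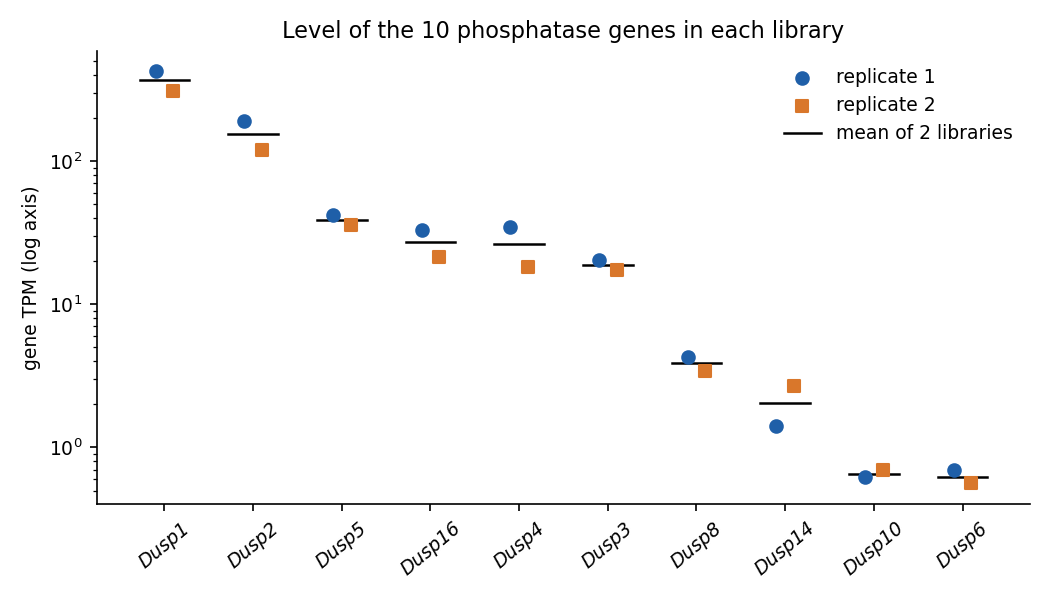
Gene TPM (log axis) of the 10 members in replicate 1 (circles) and replicate 2 (squares), with the mean of the 2 libraries as a bar, ordered by mean TPM. Dusp1 and Dusp2 lie above 100 in both libraries, Dusp5, Dusp16, Dusp4 and Dusp3 between 10 and 100, and Dusp10 and Dusp6 below 1.

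By these levels 8 of the 10 members had at least 1 TPM in each library, against 39.2% of protein-coding genes. A TPM of at least 10 was reached by 6, against 14.4%, and a TPM of at least 100 by 2, against 1.39%. The members' median log2(TPM + 1) was 4.49 ± 0.37, and that of the 8622 protein-coding genes at or above 1 TPM in each library was 3.04 ± 0.24 (both SD, n = 2). The members were listed with these libraries' results known, so their counts describe them and do not test them.

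Neighbours in the order of levels were compared within each library, and counted as apart when the difference had the same sign in both and its mean exceeded its SD. Of the 9 neighbouring pairs 6 were apart. The order was taken from the same 2 libraries, and an SD of 2 values is a loose bound. The count therefore describes the pairs and does not test them. On the log2(TPM + 1) scale Dusp1 lay above Dusp2 by 1.26 ± 0.15, Dusp2 above Dusp5 by 1.93 ± 0.32 and Dusp3 above Dusp8 by 2.04 ± 0.03 (SD, n = 2). On this scale these 3 steps are the widest, with Dusp1, Dusp2, a middle set of 4 and a low set of 4 between them. With a pseudocount of 0.1 the step from Dusp14 to Dusp10 (1.45) was wider than that from Dusp1 to Dusp2 (1.26), as it was on TPM rescaled over protein-coding genes (1.32 and 1.26). On CPM the step from Dusp8 to Dusp14 (2.56) was the widest and that from Dusp2 to Dusp5 was 0.86. Dusp5 lay above Dusp16 by 0.53 ± 0.27 and Dusp14 above Dusp10 by 0.85 ± 0.38. Dusp8 lay above Dusp14 by 0.70 ± 0.61, a mean only just past its SD. Dusp16 and Dusp4 (0.08 ± 0.21), Dusp4 and Dusp3 (0.39 ± 0.48), and Dusp10 and Dusp6 (0.03 ± 0.12) did not differ beyond their spread. The order within the middle and low sets depended on the table and the unit. In the second transcript table that the authors deposited, Dusp5 minus Dusp16 turned to -0.02 ± 0.14 and Dusp4 minus Dusp3 to -0.03 ± 0.57, while Dusp16 lay above Dusp4 by 0.72 ± 0.31 and Dusp10 above Dusp6 by 0.17 ± 0.15, both apart. On CPM, which has no length correction, Dusp5 minus Dusp16 was -0.16 ± 0.23 and Dusp4 minus Dusp3 was -0.13 ± 0.53. There Dusp16 lay above Dusp4 by 0.63 ± 0.27 and Dusp10 above Dusp6 by 0.23 ± 0.15, both apart, and Dusp14 was no longer apart from Dusp10 (0.34 ± 0.36).

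Most members differed little between the replicates once the libraries were scaled on the bulk of their genes. TPM as deposited was lower in replicate 2 for genes in general: the median log2 ratio of replicate 2 to replicate 1 over the 8622 protein-coding genes was -0.42. Deposited TPM are scaled to a fixed sum, and the cause of this shift was not tested. When TPM was rescaled over protein-coding genes only, Dusp1 stood at 1663 and 1646, and Dusp2 at 747 and 634. The mean of Dusp1 was then 1654 ± 12.4, beside 366 ± 80.3 as deposited (both SD, n = 2). Expected counts were then normalised by TMM, which scales libraries on the bulk of their genes, for the 10088 genes with a mean count of at least 50. Of the 8 members that passed this filter only Dusp14 differed by more than 2-fold, against 1.18% of all genes compared (119 genes). Its log2 ratio of replicate 2 to replicate 1 was 1.19, and 0.714% of genes had a larger absolute ratio. Differences of this size are more frequent at low counts: of the 598 genes with a mean count from 50 to 63, a range chosen around that of Dusp14 after its value was seen, 25 (4.18%) were beyond 2-fold. Its 43 and 70 counts give a fold of 2.29 with an exact binomial 95% interval from 1.55 to 3.43, which covers counting error only. The next in size were Dusp4 at -0.51, where 9.58% of genes had a larger absolute ratio, and Dusp2 at -0.39. Dusp3 (0.24), Dusp5 (0.20), Dusp16 (-0.13), Dusp1 (-0.09) and Dusp8 (0.09) were closer to 0. The median absolute log2 ratio was 0.22 over the 8 members and 0.18 over all genes compared. Dusp6 and Dusp10 were below the minimum count, and without it their log2 ratios were 0.25 and 0.55.

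**Figure D2:**
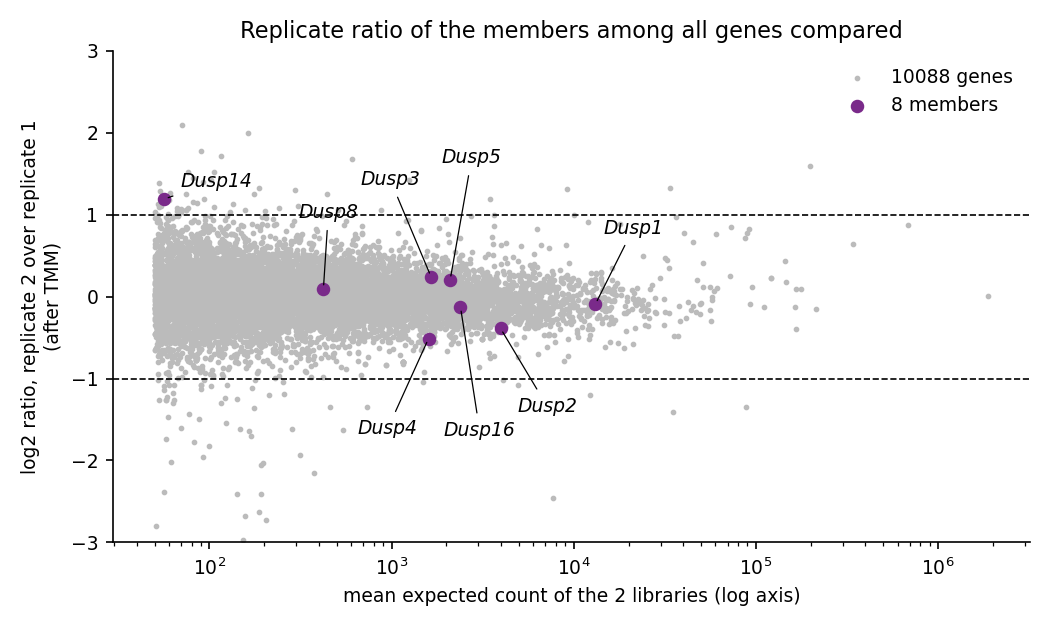
Log2 ratio of replicate 2 over replicate 1 after TMM against the mean expected count (log axis) for 10088 genes (grey) and the 8 members compared (purple); dashed lines mark a 2-fold difference, and 5 genes lie outside the plotted range. Dusp14, at 1.19, is the only member beyond the dashed lines, and it has the lowest count of the 8.

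Most of the Dusp1 RNA was assigned to transcripts that keep an intron. Transcripts annotated as retained introns held 65.1% of the gene's transcript TPM in replicate 1 and 70.0% in replicate 2. In Dusp2 they held 34.8% and 45.7%. By expected counts in place of TPM, which gives short transcripts less weight, the shares were 60.6% and 68.5% for Dusp1, and 17.2% and 24.5% for Dusp2. In Dusp16, the third member with such an annotated transcript, they held 2.81% and 0%, and 4.13% and 9.37% in the second transcript table. The other 7 members have no such transcript in the annotation, so RNA that keeps an intron cannot show in their shares. Total nuclear RNA holds transcripts whose splicing is not finished, and a stable retained intron and an unspliced precursor cannot be told apart in these tables.

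**Figure D3:**
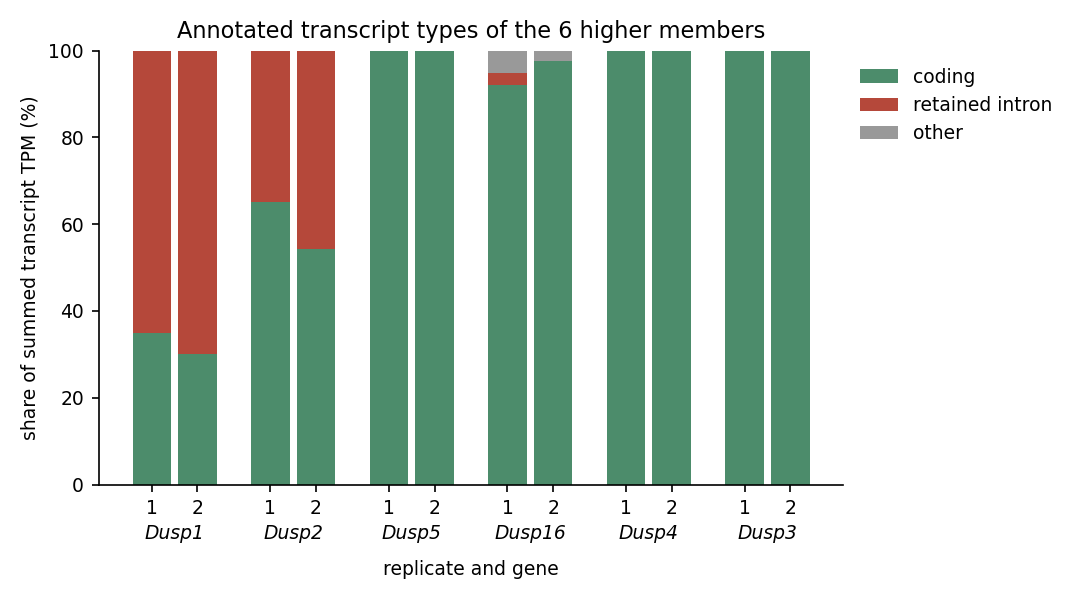
Share of summed transcript TPM (%) held by coding, retained-intron and other annotated transcripts of the first transcript table in each library for the 6 members at or above 10 TPM in each. Retained-intron transcripts take 65.1% and 70.0% of Dusp1 and 34.8% and 45.7% of Dusp2, and 2.81% and 0% of Dusp16.

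The Dusp1 share was in the upper tail of the genes compared, and that of Dusp2 was not. Shares were ranked by TPM of the first transcript table only. Among 5609 protein-coding genes with an annotated retained-intron transcript and at least 1 TPM in each library, the median share was 27.6% ± 0.384 (SD, n = 2). The share of Dusp1 was above that of 94.1% of these genes in replicate 1 and 95.03% in replicate 2. The share of Dusp2 was above that of 62.4% and 77.0%. Among the 209 such genes at or above 100 TPM in each library, the median was 32.7% ± 0.545, and Dusp1 ranked 19th and 15th while Dusp2 ranked 98th and 66th. The median over Dusp1, Dusp2 and Dusp16 was 40.2% ± 7.67 (SD, n = 2), which is the value of Dusp2.

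**Figure D4:**
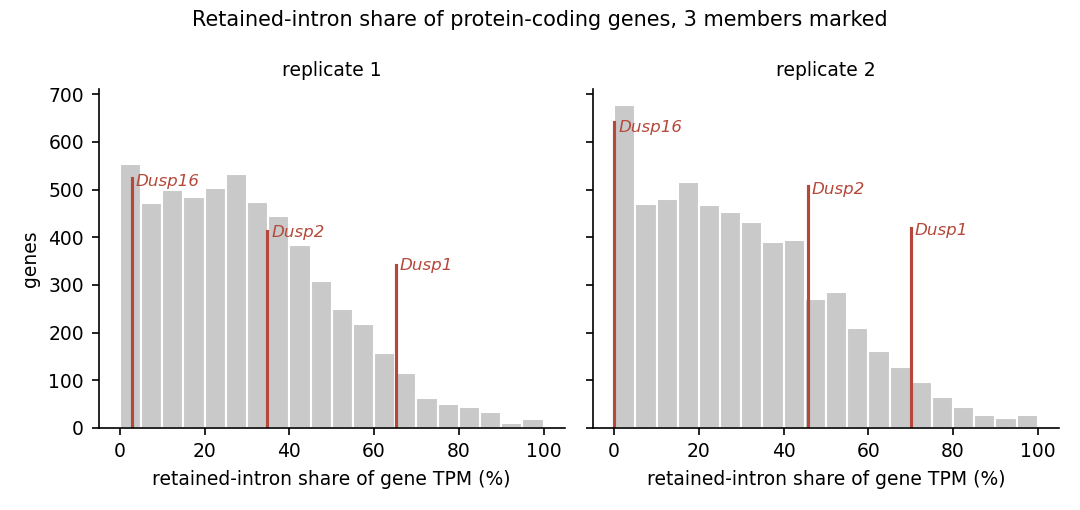
Number of genes by their retained-intron share of gene TPM (%), in bins of 5 percentage points, for 5609 protein-coding genes in each replicate, with Dusp1, Dusp2 and Dusp16 marked by lines whose height has no meaning. Dusp1 lies in the right tail at 65.1% and 70.0%, Dusp2 near the middle and Dusp16 at the left edge.

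In Dusp1 the retained RNA was divided over 2 transcripts that keep different introns. Dusp1-203, which keeps intron 2, stood at 148 TPM in replicate 1 and 119 TPM in replicate 2. Dusp1-204, a shorter model that keeps intron 3, had a TPM of 127 and 97.8. Both introns shown above were thus held by transcripts of similar TPM, and no annotated Dusp1 transcript keeps the 2 together. Their expected counts were not similar: 7603 and 5777 for Dusp1-203, and 1965 and 1416 for the shorter Dusp1-204. In Dusp2 the transcript Dusp2-202, which keeps intron 2, had a TPM of 66.1 and 54.4, beside 124 and 64.8 for the coding Dusp2-201. Dusp2-202 also ends inside intron 3, so its TPM is not specific to intron 2. The lower Dusp2 level of replicate 2 was thus mainly in the coding transcript.

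In the first transcript table the coding transcripts of Dusp1 traded places between the libraries. Dusp1-202, with the full first exon, stood at 128 TPM in replicate 1 and 37.3 TPM in replicate 2. Dusp1-206, with a shorter first exon, had a TPM of 19.6 and 55.6. Their sum was 148 and 92.9. The second transcript table gave Dusp1-202 a TPM of 48.1 and 29.9 and Dusp1-206 a TPM of 0.770 and 7.88. There each changed in the same direction, but Dusp1-202 stayed the higher in both libraries. Which of the 2 was higher in replicate 2 thus depended on the table. The other coding model, Dusp1-205, which stretches the gene to 56539 bp, was at 0 in both libraries of the first table.

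**Figure D5:**
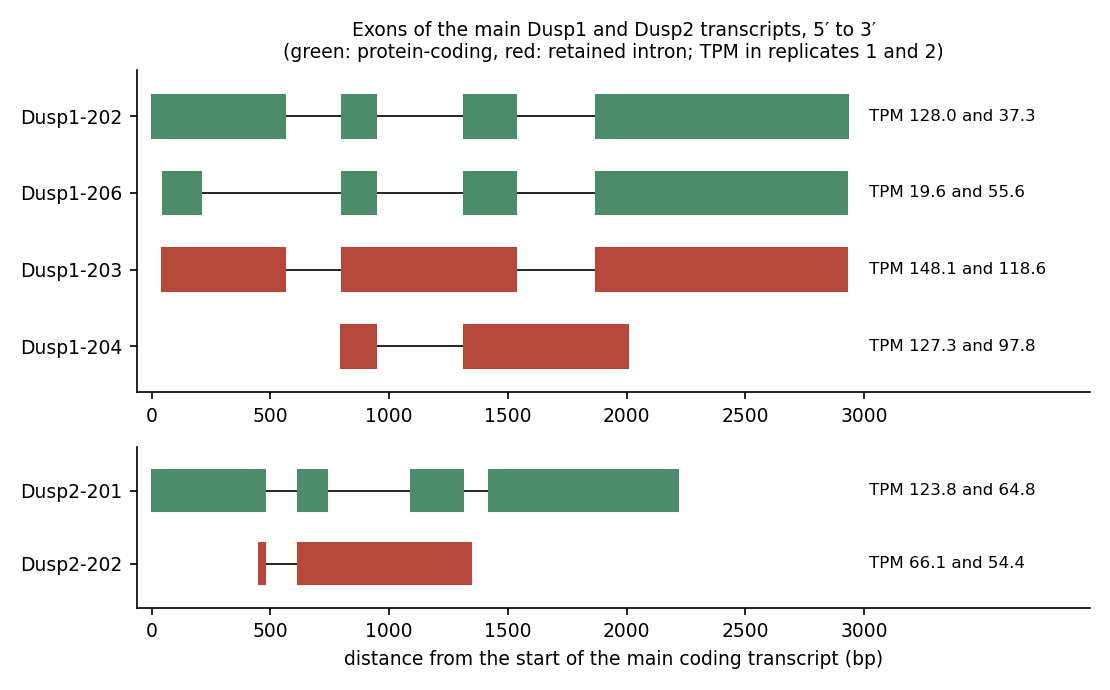
Exons (boxes) and introns (lines) of the Dusp1 and Dusp2 transcripts that hold most of each gene's TPM, drawn to scale from the start of the main coding transcript (bp); green is protein-coding, red is retained intron, and the TPM in replicates 1 and 2 is at the right. Dusp1-203 fills intron 2, Dusp1-204 fills intron 3, and Dusp2-202 fills intron 2 of Dusp2 and ends inside intron 3.

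Estimates for single transcripts of the other members varied with the table. For Dusp3 the first table gave Dusp3-201 a TPM of 13.57 and 7.24 and Dusp3-206 a TPM of 4.84 and 9.21. The second table put Dusp3-206 first in both libraries, at 5.42 and 7.76, with 2.10 and 1.19 for Dusp3-201. Which of these 2 coding transcripts was higher is therefore not settled for replicate 1, while in replicate 2 both tables put Dusp3-206 higher. In the first table Dusp16 was divided mainly over the coding transcripts Dusp16-204 (12.2 and 8.62), Dusp16-201 (10.7 and 7.39) and Dusp16-202 (7.24 and 4.80), in the same order in both libraries. The second table kept Dusp16-204 first, at 25.3% and 24.9% of the gene, and gave 23.7% and 16.8% to the non-coding Dusp16-205, which the first table put at 0. Dusp4 and Dusp5 have 1 annotated transcript each, Dusp4-201 and Dusp5-201. Dusp8-201 and Dusp10-201 held all of their genes' TPM in the first table, but 64.2% and 54.6% in replicate 2 of the second. Dusp14-202 held 1.42 of 1.42 in replicate 1 and 2.05 of 2.68 in replicate 2 of the first table, but 28.8% and 17.9% of the gene in the second. Dusp6 was divided over Dusp6-204 (0.35 and 0.46) and Dusp6-201 (0.23 and 0.11).

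Of the genes that overlap a member, 3 had at least 1 TPM in each library. The strand setting is not given in the sources used here, so reads in shared exons may have been counted to either gene. Ergic1, a gene of the secretory pathway opposite Dusp1, had a TPM of 12.2 and 12.8, far below Dusp1. Gm20659, annotated as antisense to Dusp3 with overlapping exons, had a TPM of 7.10 and 1.52, from 69 and 14 expected counts beside 1793 and 1504 for Dusp3. Gm36328, antisense to Dusp16, had a TPM of 10.3 and 8.13, and its exons overlap none of Dusp16.

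Promoters of the members were searched for known elements, as a description only. The promoter table used, from RefSeq on GRCm38.p6, was matched by 9 of the 10 members, all but Dusp4. The 250 bases before each RefSeq start were searched on both strands. By the GENCODE annotation these windows are not free of exons. Those of Dusp1, Dusp3, Dusp5 and Dusp14 hold exon bases of the gene's own transcripts, and that of Dusp10 holds exon bases of another gene. The cAMP response element TGACGTCA, the site of CREB and ATF factors, was in 2 of the 9, Dusp1 and Dusp8, and in 1.55% of 32817 promoters of the same length. The serum response element, the site of SRF, was in Dusp5 alone, in 2 copies, and in 1.47% of promoters. Stretches that hold them are shown with the elements in capitals.
Dusp1, chr17:26508553-26508672, minus strand: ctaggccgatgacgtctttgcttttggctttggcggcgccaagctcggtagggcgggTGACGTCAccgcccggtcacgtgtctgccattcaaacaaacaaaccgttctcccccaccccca
Dusp8, chr7:142095325-142095414, minus strand: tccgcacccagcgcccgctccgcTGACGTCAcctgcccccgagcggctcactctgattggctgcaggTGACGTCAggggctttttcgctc
Dusp5, chr19:53529015-53529094, plus strand: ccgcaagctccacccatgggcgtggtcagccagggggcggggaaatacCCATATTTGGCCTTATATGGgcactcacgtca
The cAMP response element begins at -143 from the RefSeq start of Dusp1 and at -107 and -63 from that of Dusp8. The serum response elements of Dusp5 begin at -82 and -72, side by side. Mean TPM was 366 for Dusp1 and 3.86 for Dusp8, which hold the cAMP element, and 154.5 for Dusp2, which holds neither element. Whether these elements bear on the levels was not tested. The shorter TGACG, which is contained in the full cAMP element, was in Dusp1, Dusp5, Dusp8 and Dusp16, and in 17.7% of promoters. A loose NF-κB pattern was in 7 of the 9, all but Dusp8 and Dusp16, and in 45.8% of promoters. The AP-1 site TGANTCA (6.75% of promoters) and the TATA box TATAAA (12.4%) were in none of the 9. A match is a run of letters in this window and no measure of binding.

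The rest of the pathway was described by lists of genes, chosen like the members with earlier results known. Of 16 other dual-specificity phosphatases, 5 had at least 1 TPM in each library and 1 reached 10: Dusp11, an RNA phosphatase, at 44.5 ± 6.79. The remaining MAP kinase phosphatases are Dusp7, which had a TPM of 12.58 and 7.90, and Dusp9, which had 3 and 2 counts. Of 13 MAP kinase genes, 7 reached a TPM of 1 and 4 reached 10, led by Mapk6, which encodes ERK3, at 83.8 ± 27.9 and Mapk14, which encodes p38α, at 24.1 ± 1.53. Both Dusp1 and Dusp2 were thus above every MAP kinase gene listed. Of the 17 upstream kinases 16 reached a TPM of 1 and 8 reached 10, with Map2k3, an activator of p38, at 66.5 ± 16.3 and Map2k1, an activator of ERK, at 24.3 ± 5.06 (all SD, n = 2).

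Downstream, all 10 kinases that MAP kinases activate reached a TPM of 1 in both libraries and 5 reached 10. Mapkapk2, the p38 effector kinase that controls mRNA stability, stood at 125 ± 27.7 and Mapkapk3 at 46.1 ± 9.83. Of 13 other brakes on the pathway 9 reached a TPM of 1 and 3 reached 10, led by Spred1, an inhibitor of Ras signalling to ERK, at 58.2 ± 19.8 and the phosphatase Ppm1b at 19.5 ± 5.71. Of 21 transcription and mRNA-decay targets of the pathway 20 reached a TPM of 1, 16 reached 10 and 3 reached 100. Zfp36, which encodes the mRNA-decay factor tristetraprolin, stood at 235 ± 24.0 and Atf3, a transcriptional repressor, at 194 ± 70.2 (all SD, n = 2). The list medians on the log2(TPM + 1) scale were 0.54 ± 0.12 for other dual-specificity phosphatases, 1.40 ± 0.37 for other brakes, 2.71 ± 0.30 for MAP kinases, 3.80 ± 0.37 for upstream kinases, 3.87 ± 0.50 for activated kinases and 4.96 ± 0.20 for targets, beside 4.49 ± 0.37 for the 10 members.

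The cells carried the markers of their label. All 9 macrophage markers had at least 10 TPM in each library, with a summed TPM of 3976 and 3540. No marker of B cells, T cells, neutrophils, fibroblasts or dendritic cells reached a TPM of 1 in both, all 4 T cell markers had 0 counts, and the highest single value was 1.34. Genes of the mitochondrial genome held 5.64% ± 0.756 of TPM (SD, n = 2), which is RNA made outside the nucleus, and its part in the members' levels was not tested.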

How the data were processed

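Per the labels, total RNA of 1 condition was sequenced in 2 libraries. The files were made on mm10 with GENCODE M21, per the file headers. Not given in the sources used here are the aligner, quantifier, versions and strand setting. The expected counts of the gene table and of 2 transcript tables are the authors' estimated counts, not normalised. Their deposited TPM are divided by effective length and scaled to a fixed sum. The interval bounds of TPM are the authors' too. Totals were 21256531 and 15643649 expected counts, of which 99.3% and 99.8% lay on annotated mouse genes; other entries were left out of library sizes. Nothing says that the replicates came from separate animals.

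Levels are log2(TPM + 1), and differences were taken within a library. For the replicate ratio, expected counts were rounded, normalised by TMM in edgeR 4.0.16 (R 4.3.3), and 0.5 was added to each. On simulated data for 10088 genes, 100% of changes of 2 and 96% of changes of 1.5 (log2) passed 2-fold, as did 0.324% of unchanged genes. The simulation gave every gene the same dispersion. In the real libraries 1.18% of genes were beyond 2-fold, and 4.18% at a mean count from 50 to 63. The simulated share is therefore no measure of error at low counts. Transcript values come from the first transcript table, and the second one, summed per gene, served as an alternative. Promoter sequences are from RefSeq (GRCm38.p6), intron sequences from the genome by GENCODE M21 coordinates, which are 1-based. Motifs were searched by exact match in 250 bases. Other steps used numpy 2.4.6, pandas 2.3.3, scipy 1.17.1 and matplotlib 3.10.9.

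The members and lists were chosen with earlier results of these data known. Named beside the members were the 2 highest genes of each list, Dusp7 and Dusp9, transcripts with at least 10% of a member's TPM in both libraries, and overlapping genes at or above 1 TPM in both. Dusp1-205, Dusp1-206, Dusp16-205 and the promoter stretches shown were chosen after their values were seen. Alternatives were a pseudocount of 0.1, the second transcript table, CPM, TPM rescaled over protein-coding genes, members with a TPM of at least 1, DESeq2 1.42.0 size factors, other count minimums (none and 200) and each library alone.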

Additional observations from a re-analysis of the deposited data

How the results depend on the processing

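With 2 libraries of 1 condition, an SD rests on 2 values, and leaving out a library leaves 1. The members' median level of 4.49 moved to 3.63 in the second transcript table, to 6.45 on CPM and to 6.63 on TPM rescaled over protein-coding genes, all of which change the scale itself; over the libraries taken singly it ranged from 4.23 to 4.75. The nuclear members minus the others, 4.35, stood at 3.86 in the second transcript table and at 2.99 over the 8 members with a TPM of at least 1, which drops 2 low ones from the other members, and ranged from 4.05 to 4.66 without one of the libraries. The count of members with a TPM of at least 10 was between 5 and 7 in all settings run, and 6 in either library alone. The median retained-intron share of 40.2% moved to 20.8% when expected counts took the place of TPM, which gives less weight to the short Dusp2-202, and ranged from 34.8% to 45.7% over single libraries; the Dusp1 share was 64.5% by counts and 72.4% in the second table. Of the 8 members in the replicate comparison, 1 was beyond 2-fold; with a mean count of at least 200 there was none (0), because Dusp14 was no longer among those compared. Under the other settings run it remained the 1 member beyond 2-fold. Neighbours that were apart numbered between 5 and 7. Of 43 combinations of a neighbouring pair and a setting, 36 kept their side of the rule and 1 fell below it. A further 4 rose above it, and 2 that had been apart changed sign. The 36 include the pairs under the setting of members with a TPM of at least 1. That setting leaves the values of these pairs unchanged, so they could not differ. The sign changes were in Dusp5 minus Dusp16, -0.016 in the second transcript table and -0.16 on CPM. The 4 were Dusp16 minus Dusp4 and Dusp10 minus Dusp6 in those same settings, and the 1 was Dusp14 minus Dusp10 on CPM. Dusp4 minus Dusp3, not apart in any setting run, also changed sign, to -0.027 and -0.13. The cause was not tested. With 1 library no neighbouring pair has an SD, so that count was not run. No paired analysis was possible because there is 1 group. Depth limits Dusp6, Dusp10 and Dusp14, which rest on 29 to 70 expected counts a library.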
